A study of Homo sapiens with 12 samples.

Results

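AHR, the aryl hydrocarbon receptor, waits in the cytoplasm in a complex with HSP90 and moves to the nucleus when it binds a ligand such as dioxin or a tryptophan metabolite. There it acts as a transcription factor, pairs with ARNT and binds the xenobiotic response element, whose core is GCGTG. The genes this pair is best known for inducing form 2 groups, the drug-metabolizing enzymes (CYP1A1, CYP1A2, CYP1B1, ALDH3A1 and NQO1) and the feedback inhibitors of the receptor itself (AHRR and TIPARP). These 7 gene symbols were chosen with earlier results of these data known and were looked up by name in the table of 60623 genes. They matched 8 entries, because AHRR is listed under 2 Ensembl identifiers, and 7 of the 8 had at least 1 count in a library.

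RNA was sequenced from 4 stable derivatives of A549, an established cell line from a human lung adenocarcinoma that has its own AHR. All lines, the control included, were made by lentiviral infection with pLV-EF1a-IRES-Hygro and selected in hygromycin at 200 ug/ml for 72 h, and no AHR ligand is described. V carried the empty vector, WT carried HA-tagged wild-type AHR, SA carried HA-AHR with the S489A substitution, and SD carried HA-AHR with S489D. The residue changed is a serine that the study examined as a site of phosphorylation by the kinase PLK1, where alanine cannot be phosphorylated and aspartate imitates the charge of the phosphate. Each construct was represented by 1 line with 3 libraries that the labels call biological replicates, so a construct cannot be told apart from whatever else sets its line off, and the p-values measure the spread between these libraries.

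The 12 libraries held between 7844045 and 11765576 expected counts (median 9880852), and 3 counts, the limit that a count of 0 allows, corresponded to 0.255 to 0.382 CPM (counts scaled to a common library total). Intervals and limits drawn from counts cover counting error only. The introduced receptor was checked first, as the summed CPM of AHR and ENSG00000283321, a gene model that shares 2373 of its 3523 exon bases with AHR. The sum was 67.4, 65.8 and 74.3 in the V libraries and rose to 450, 480 and 477 in WT, 371, 407 and 400 in SA and 292, 305 and 290 in SD, where native and introduced transcripts are counted together. The mean was 6.79-fold that of V in WT, 5.68-fold in SA and 4.27-fold in SD, with no overlap between any of the 4 lines, and an exact permutation test gave p = 0.1 for each line against V, the smallest that 3 libraries against 3 allow. Of the epithelial markers, KRT8, KRT18 and CDH1 were at 102.6 CPM or more in every library, whereas EPCAM did not exceed 1.75 CPM and KRT19 did not exceed 0.536 CPM. No single leukocyte or endothelial marker exceeded 0.316 CPM, and of the fibroblast markers COL1A1 reached 13.1 CPM and the other two stayed under 1 CPM.

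Promoter windows from RefSeq (GRCh38.p14, 250 bases before to 50 after a transcription start) were available for 5 of the 7 symbols. CYP1B1 and ALDH3A1 were not among them. The stretches that hold the core are printed because the AHR-ARNT pair binds it, as 25 bases each except where the window began, 5′ to 3′ on the strand of the gene, with GCGTG or its reverse complement CACGC in capitals. Positions count the first capital from the transcription start.
TIPARP, 208 bases before a start, chr3:156674372-156674396, plus strand: cgagaaaggaCACGCcccctcgcgg
TIPARP, 142 bases before the same start, chr3:156674438-156674462, plus strand: aacgaacgcgCACGCgcgcgcaggg
AHRR, 30 bases before a start, chr5:321674-321698, plus strand: cgggcggctcGCGTGccggggtggg
AHRR, 247 bases before another start, chr5:322360-322377, plus strand: ggcGCGTGacaggcaggg
AHRR, 42 bases before that start, chr5:322558-322582, plus strand: agaagggtggGCGTGtgcgcgcgtt
CYP1A1, 57 bases before its start, chr15:74725571-74725595, minus strand: agggaaggagGCGTGgccacacgta
NQO1, at base 2 after its start, chr16:69726545-69726569, minus strand: gtgcactacaCACGCgactcccaca

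The core was found in 5 of the 8 windows of these genes, and the window of CYP1A2 held none. It is a short motif that also occurs, on either strand, in 12746 of all 34943 windows (36.5%). The longer form TNGCGTG, which contains the core, was in 1 window of AHRR and in that of NQO1, and in 5.50% of all windows. These letters describe the windows and were not measured as binding sites, and the well-known distal elements of CYP1A1 lie outside so short a window.

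The members differed widely in abundance. Scaled to exon length, NQO1 was the most abundant in every line, at 298 ± 5.13 CPM per kb in V (SD, n = 3), followed by ALDH3A1 at 213 ± 6.30, CYP1B1 at 10.4 ± 0.713, TIPARP at 4.59 ± 0.936 and CYP1A1 at 0.175 ± 0.107. CYP1A2 was last with no count. In V, each neighbouring pair down to CYP1A1 was separated by more than its SDs, and the order was the same in WT, SA and SD. AHRR was left out of this order because neither of its deposited spans is that of an AHRR entry in GENCODE v44.

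**Figure D1:**
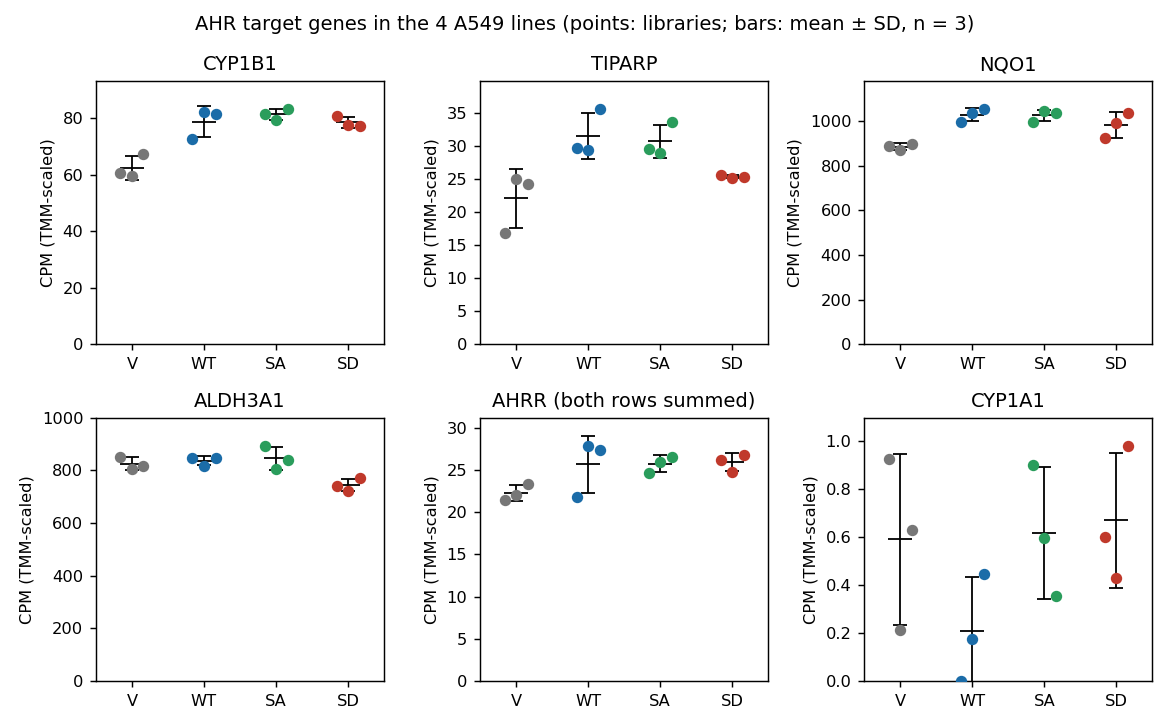
Levels of 6 of the target genes in CPM with TMM-scaled library sizes (linear axes from 0), 1 point per library, with the mean and SD of the 3 libraries of V, WT, SA and SD. CYP1B1 and NQO1 were higher in every library of WT, SA and SD than in any of V, TIPARP was highest in WT and SA, ALDH3A1 was lowest in SD, and CYP1A1 stayed under 1 CPM everywhere.

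The CYP1 enzymes oxidize polycyclic aromatic hydrocarbons and other planar substrates, and CYP1A1 induction is the usual readout of AHR activity. CYP1B1 (ENSG00000138061, GRCh38 chromosome 2, 38066973 to 38109902, minus strand) also hydroxylates estradiol. It was the only member called higher than V in all 3 AHR lines by the edgeR test given below. Its level was 60.5, 59.4 and 67.3 CPM in V, 72.5, 82.3 and 81.6 CPM in WT, 81.6, 79.4 and 83.2 CPM in SA and 80.9, 77.6 and 77.3 CPM in SD. Every library of an AHR line lay above every library of V, and the AHR lines overlapped each other. Against V, CYP1B1 was 1.27-fold higher in WT (95% interval 1.14 to 1.40, log2 fold change 0.34, SE 0.07), 1.30-fold in SA (1.18 to 1.44) and 1.26-fold in SD (1.14 to 1.39). By edgeR's quasi-likelihood test with Benjamini-Hochberg adjustment over all genes tested, the adjusted p was 0.00275 for WT, 4.75e-04 for SA and 0.00333 for SD. The 3 comparisons share the V libraries, and in bulk RNA a change in the share of cells that express a gene and a change in RNA per cell cannot be told apart. The increases did not differ detectably between the AHR lines, with a log2 difference of -0.01 between SD and WT (95% interval -0.15 to 0.13), -0.05 between SD and SA (-0.18 to 0.08) and -0.04 between WT and SA (-0.18 to 0.09). CYP1B1-AS1, which shares 678 exon bases with CYP1B1 on the opposite strand, had 7 to 22 counts per library, at most 3.33% of the CYP1B1 count.

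CYP1A1 (ENSG00000140465, chromosome 15, 74719542 to 74725536, minus strand) was barely expressed. It had 9, 2 and 6 counts in the V libraries, 0, 2 and 4 in WT, 9, 7 and 4 in SA and 6, 4 and 11 in SD, and the lines overlapped. Pooled over a line, this was 0.593 CPM in V (exact Poisson 95% interval 0.346 to 0.950), 0.213 CPM in WT (0.0782 to 0.463), 0.605 CPM in SA (0.370 to 0.935) and 0.686 CPM in SD (0.425 to 1.05). CYP1A1 did not pass the filter on low counts. When every gene with at least 1 count was tested, its adjusted p ranged from 0.630 in WT against V to 0.979 in SA against V, and a difference was not detectable at this depth. CYP1A2 (ENSG00000140505, chromosome 15, 74748845 to 74756607, plus strand), the hepatic member of the family, had 0 counts in all 12 libraries, which allows up to 0.0908 CPM in SA and up to 0.106 CPM in WT, the deepest and shallowest lines.

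TIPARP (PARP7; ENSG00000163659, chromosome 3, 156673235 to 156706770, plus strand) is a mono-ADP-ribosyltransferase that AHR induces and that in turn represses AHR. It rose in WT and SA, with smaller values in SD. TIPARP was at 16.9, 25.0 and 24.2 CPM in V, 29.7, 29.3 and 35.5 CPM in WT, 29.6, 28.9 and 33.6 CPM in SA and 25.6, 25.1 and 25.3 CPM in SD. All libraries of WT and SA lay above those of V, while the SD libraries lay just above the upper pair of V and below every library of WT and SA. Replicate 1 of V stood below the rest. TIPARP was 1.43-fold higher in WT than in V (95% interval 1.21 to 1.69, adjusted p = 0.00755) and 1.39-fold higher in SA (1.18 to 1.64, adjusted p = 0.00950), and in SD the ratio was 1.15 (0.970 to 1.37, adjusted p = 0.413). Both calls depended on single libraries. In WT the log2 fold change of 0.51 became 0.35 without V replicate 1 (adjusted p = 0.103) and 0.42 without WT replicate 3 (0.0860), and in SA the value of 0.48 became 0.32 without V replicate 1 (0.113) and 0.41 without SA replicate 3 (0.0788). In SD, the value of 0.21 became 0.042 without V replicate 1 (adjusted p = 0.924) and 0.31 without V replicate 2 (0.249). Between the AHR lines, TIPARP differed by -0.31 on the log2 scale in SD against WT (SE 0.10, 95% interval -0.52 to -0.10, adjusted p = 0.192) and by -0.28 in SD against SA (-0.47 to -0.08, adjusted p = 0.384). These intervals lie below 0, but neither difference passed the adjustment over all genes. The summed AHR level was also lowest in SD, and its part in these values was not tested.

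AHRR, the AHR repressor, resembles AHR, competes with it for ARNT and is itself an AHR target. Its counts were split between ENSG00000286169 (chromosome 5, 271670 to 438291, plus strand), whose span is that of the PDCD6-AHRR readthrough gene of GENCODE v44, and ENSG00000063438 (321759 to 435110). The readthrough gene shares 5561 of its 5874 exon bases with AHRR and 259 with PDCD6, which had 705.52 to 1144.45 expected counts per library. Whether reads of PDCD6 were counted in ENSG00000286169, and so in the AHRR total, was not tested. The expected counts of both AHRR entries were fractional in all 12 libraries, so reads were divided between them by RSEM and neither entry can be read alone. The entries held 151.35 and 19.86 in WT replicate 1, 298.2 and 19.14 in WT replicate 2 and 249.24 and 12.1 in SD replicate 1. These do not add to whole numbers, and which further gene shared reads there was not tested. The sum of both was 21.5, 22.1 and 23.4 CPM in V, 21.8, 27.8 and 27.4 CPM in WT, 24.6, 26.0 and 26.6 CPM in SA and 26.2, 24.8 and 26.8 CPM in SD. SA and SD lay above all V libraries, and WT replicate 1 lay within the range of V. The sum was 1.16-fold that of V in WT (95% interval 0.992 to 1.35, adjusted p = 0.322), 1.15-fold in SA (1.00 to 1.33, adjusted p = 0.230) and 1.16-fold in SD (1.01 to 1.34, adjusted p = 0.251), so AHRR did not pass the test in any line. Taken alone, ENSG00000286169 had log2 fold changes of 0.28, 0.32 and 0.33 in WT, SA and SD (adjusted p = 0.207, 0.0741 and 0.0840), and ENSG00000063438 had -0.28, -0.73 and -0.69 (adjusted p = 0.746, 0.284 and 0.301). The smaller entry held 14.2 ± 2.33% of the AHRR total of V (SD, n = 3), and its share was 10.4 ± 3.86% of that of WT, 7.41 ± 4.32% of that of SA and 7.54 ± 2.85% of that of SD.

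**Figure D2:**
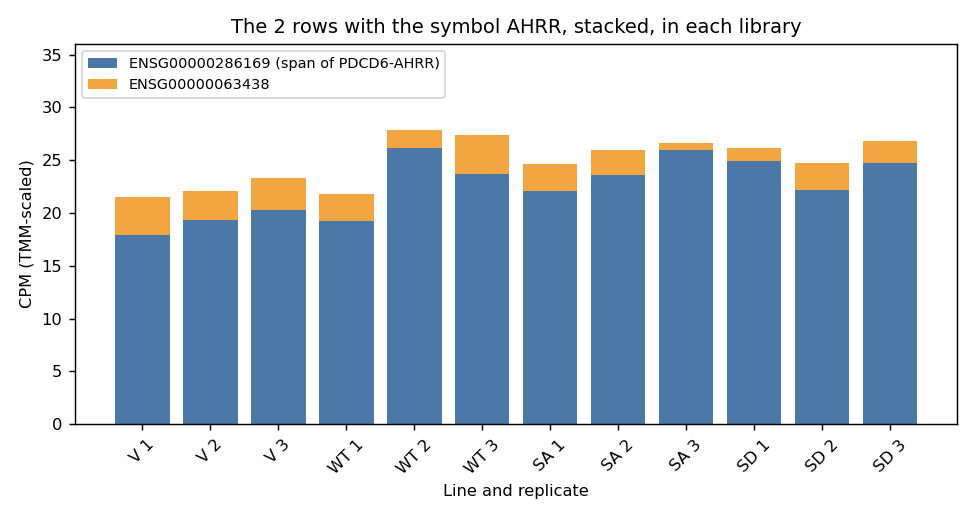
Stacked bars of the CPM of the 2 entries with the symbol AHRR in each of the 12 libraries (linear axis from 0). Most of the total lay in the entry with the span of PDCD6-AHRR in every library, and the totals of V, 21.5 to 23.4 CPM, were under those of all AHR-line libraries but WT replicate 1.

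NQO1 (ENSG00000181019, chromosome 16, 69706996 to 69726668, minus strand) reduces quinones by a step that avoids radical intermediates, and it is induced through both AHR and the oxidative stress factor NRF2. It was at 887, 870 and 900 CPM in V, 996, 1035 and 1054 CPM in WT, 997, 1045 and 1035 CPM in SA and 923, 992 and 1038 CPM in SD. No library of an AHR line overlapped V, and SD replicate 1 was the lowest of the 9. NQO1 rose 1.16-fold in WT (95% interval 1.10 to 1.23, adjusted p = 5.11e-04) and 1.16-fold in SA (1.09 to 1.23, adjusted p = 0.00230), whereas the ratio of 1.11 in SD (1.03 to 1.20) did not pass (adjusted p = 0.0941). This outcome depended both on SD replicate 1 and on the test. Without that library the adjusted p in SD by edgeR was 0.00571, and DESeq2 with every library kept gave 0.0384. The difference between SD and WT was -0.06 on the log2 scale (95% interval -0.18 to 0.05, adjusted p = 0.743), so the lines were not shown to differ. With 7842 to 12239 counts per library, NQO1 was the most precisely measured member together with ALDH3A1. An opposite-strand gene inside its exons, ENSG00000261602, had at most 1.42% of its count.

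ALDH3A1 (ENSG00000108602, chromosome 17, 19737984 to 19748943, minus strand), which oxidizes aromatic and lipid-derived aldehydes, was called in no line. It was at 853, 806 and 817 CPM in V, 847, 818 and 849 CPM in WT, 893, 805 and 841 CPM in SA and 741, 723 and 770 CPM in SD. V, WT and SA overlapped, and all 3 SD libraries were under the other 9. The ratio to V was 1.01 in WT (95% interval 0.960 to 1.07, adjusted p = 0.849), 1.03 in SA (0.959 to 1.10, adjusted p = 0.737) and 0.904 in SD (0.840 to 0.973, adjusted p = 0.106). SD was at 0.889 of WT (0.826 to 0.957, unadjusted p = 0.00308, adjusted p = 0.157) and at 0.881 of SA (0.812 to 0.955, unadjusted p = 0.00385, adjusted p = 0.294) by the same edgeR test. None of these passed the adjustment, while DESeq2 called ALDH3A1 in SD against V (adjusted p = 0.0255) and against WT (0.00368). With the replicate number fitted as a block, edgeR also called it lower in SD than in WT and in SA (adjusted p = 0.00989 for SA). The labels do not pair these libraries.

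**Figure D3:**
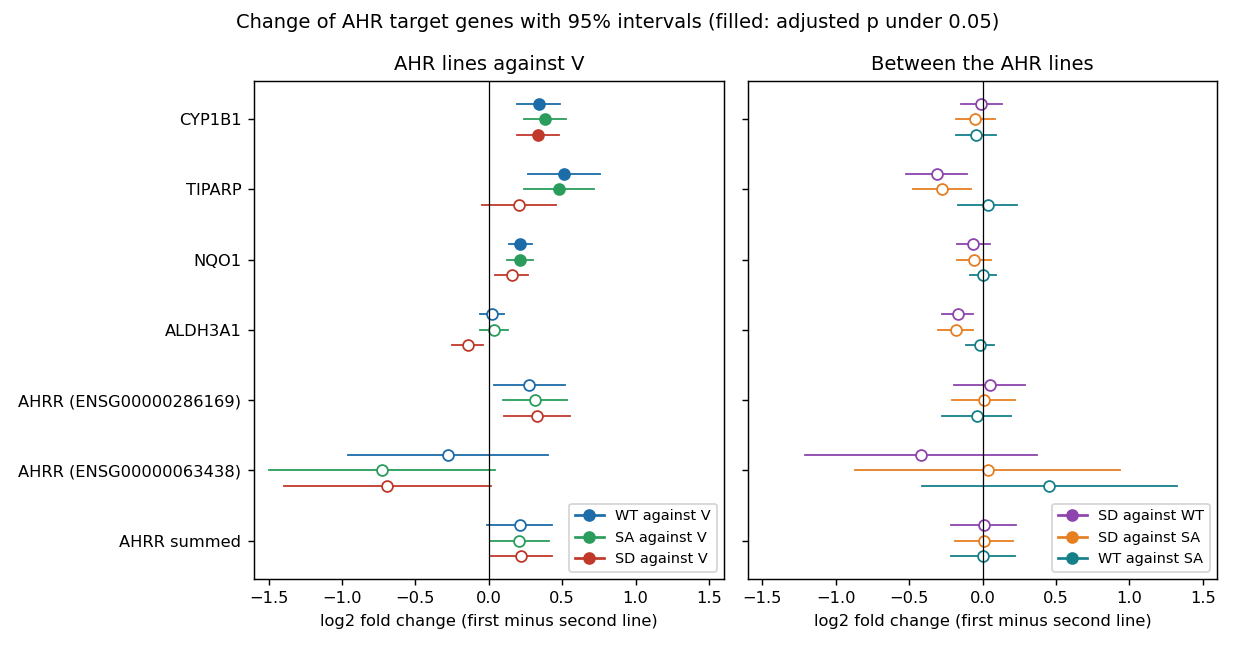
Log2 fold changes of the tested entries and of the AHRR sum with 95% intervals, the AHR lines against V on the left and the AHR lines against each other on the right, with filled points for an adjusted p under 0.05. The filled points are CYP1B1 in all 3 lines and TIPARP and NQO1 in WT and SA, all between 0.21 and 0.51, and no point is filled on the right.

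Counted over the 6 entries that passed the filter of 8, 3 were higher in WT than in V and none lower, where 2.31% of the 14772 genes tested were higher and 2.93% lower. In SA, 3 were higher and none lower, against 3.88% and 3.29% of 14913 genes. In SD, 1 was higher and none lower, against 2.92% and 2.49% of 14890 genes. The median log2 fold change of the 6 entries was 0.24 for WT, 0.26 for SA and 0.18 for SD, and that of all genes lay within 0.003 of 0. Both AHRR entries, which moved in opposite directions, are counted among the 6, so these medians depend on how AHRR reads were split. The genes were chosen with earlier results of these data known, so these counts describe them and are not an independent test. Between the AHR lines no member was called by edgeR's test fitted without a replicate block. The share of all genes called in either direction was 0.708% for SD against WT, 0.22% for SD against SA and 0.0803% for WT against SA. At an unadjusted edgeR p under 0.05, TIPARP and ALDH3A1 were lower in SD than in WT and in SA, and no entry differed between WT and SA. The share of all genes at that looser threshold was not counted, so these are not to be set against the shares above. DESeq2 called 1 member (ALDH3A1) in SD against WT and none in the other two comparisons.

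**Figure D4:**
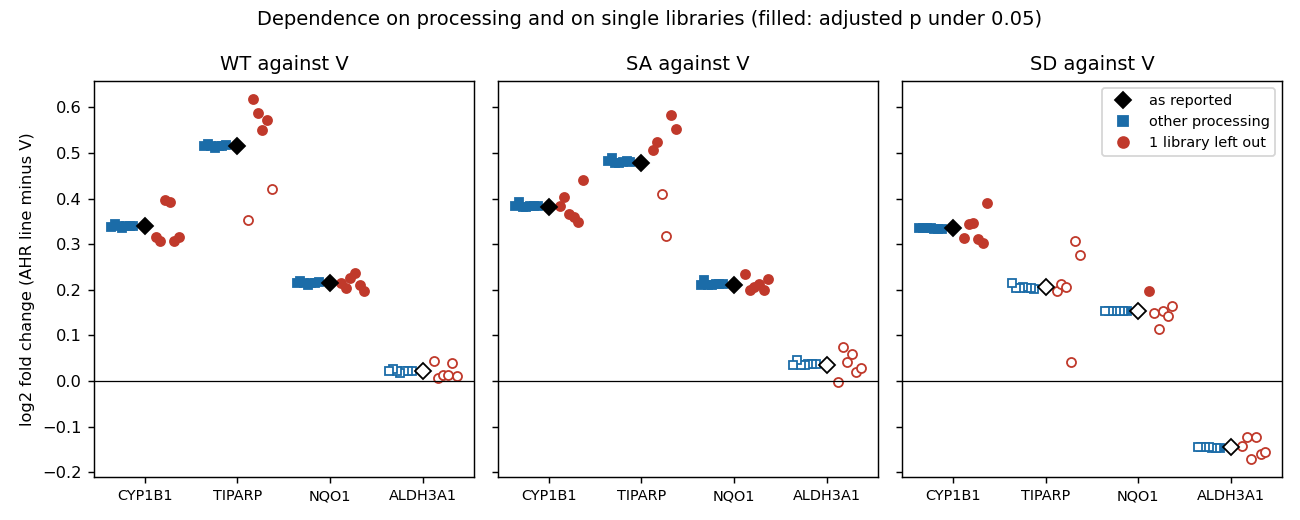
Log2 fold changes of CYP1B1, TIPARP, NQO1 and ALDH3A1 in each AHR line against V as reported (diamonds), under other filters, normalizations and tests (squares) and with 1 library left out (circles), filled for an adjusted p under 0.05. CYP1B1 stayed filled in all 3 panels, whereas the TIPARP circles of WT and SA spread from 0.32 to 0.62 and included open ones.

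The other parts of the pathway were read from 3 lists. Of the receptor machinery (ARNT and ARNT2, the dimerization partners, and the chaperones HSP90AA1, HSP90AB1 and PTGES3), all 5 genes were tested. Only HSP90AA1, the stress-inducible HSP90, was called, higher in WT than in V by 0.14 on the log2 scale (adjusted p = 0.0176), where 2.31% of all genes were called higher, and none was called in SA or SD or between the AHR lines. At most 3 of the 5 had an unadjusted p under 0.05 in any comparison. These 3 were the chaperones HSP90AA1, HSP90AB1 and PTGES3, all lower in SD than in WT. Their log2 differences were -0.19, -0.11 and -0.13, and none passed the adjustment. Of the 5 genes, 4 were lower and 1 higher in SD than in WT. The share of all genes at that looser threshold was not counted. The HSP90AA1 call was lost without V replicate 1 or 2 or WT replicate 2 or 3, with an adjusted p of up to 0.0799. It was also lost in the fit of all 12 libraries (0.102).

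Of 15 further genes that are known to respond to AHR, 10 were tested in WT and SA and 11 in SD, and UGT1A1, UGT1A6, IL1B and SERPINB2, which stayed under 1 CPM, were tested in none of them. EREG, epiregulin, a ligand of the EGF receptor, rose in all 3 lines, from 115 ± 2.56 CPM in V to 161 ± 9.79 in WT, 150 ± 5.78 in SA and 158 ± 8.56 in SD (log2 fold changes 0.49, 0.38 and 0.47, adjusted p = 2.76e-07, 2.81e-05 and 5.76e-06). ABCG2, a drug efflux transporter, rose in WT by 0.36 and in SA by 0.41 (adjusted p = 0.0257 and 0.00278). The WT call was lost without V replicate 2 or 3 or WT replicate 1 or 2, with an adjusted p of up to 0.141 and a value of 0.29 or more. PTGS2, the inducible cyclooxygenase, fell in WT and SA, from 160 ± 10.5 CPM in V to 109 ± 11.4 in WT and 99.5 ± 14.2 in SA (log2 fold changes -0.54 and -0.69, adjusted p = 9.35e-07 and 3.10e-07), and was at 143 ± 14.0 CPM in SD (adjusted p = 0.220). In SD, CYP2S1, a P450 of epithelia, fell by 0.28 on the log2 scale (adjusted p = 0.0244), a call lost under DESeq2 (0.0848) and without V replicate 2 or 3 or SD replicate 2 or 3 (up to 0.117). IL6, an inflammatory cytokine, was called higher in SD (adjusted p = 5.12e-04), at 1.98 ± 0.483 CPM against a mean of 0.209 in V. The V level is under that of 3 counts, so no fold and no SD of V is given. IL6 passed the filter on low counts only in comparisons that include SD, where it is high. Its call is therefore not to be set against the share of all genes called. Without a filter its adjusted p in SD was 5.05e-05. IL6 was at 0.814 ± 0.0676 CPM in WT and 0.560 ± 0.343 in SA. In all, 2 genes of the list were called higher and 1 lower in each line, IL6 included in SD, and the other 7 in WT, 7 in SA and 8 in SD were not called. The share of all genes called was 2.31% higher and 2.93% lower in WT, 3.88% and 3.29% in SA and 2.92% and 2.49% in SD. The list had a median log2 fold change of -0.01 for WT, -0.11 for SA and -0.05 for SD.

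Because NRF2 also induces NQO1 and ALDH3A1, 7 further NRF2 targets were read beside them, and all were tested. GCLC and GCLM (glutathione synthesis), TXNRD1, SRXN1, SLC7A11 and ME1 passed the test in no comparison, with log2 fold changes against V between -0.18 and 0.14. HMOX1, which degrades heme, fell in all 3 lines, from 136 ± 1.64 CPM in V to 97.5 ± 4.21 in WT, 99.4 ± 3.80 in SA and 107 ± 5.63 in SD (log2 fold changes -0.48, -0.45 and -0.35, adjusted p = 4.98e-07, 3.29e-06 and 3.84e-04). Of all genes, 2.93% were called lower in WT, 3.29% in SA and 2.49% in SD. TXNRD1 and SRXN1 were higher in WT (0.11 and 0.11) and SA (0.11 and 0.14) at an unadjusted edgeR p under 0.05 and did not pass the adjustment. At the same threshold ME1 was lower in SA (-0.18, unadjusted p = 0.00607) and GCLM was lower in SD (-0.145, 0.0149), and neither passed the adjustment. The part of NRF2 in the values of NQO1 was not tested.

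**Figure D5:**
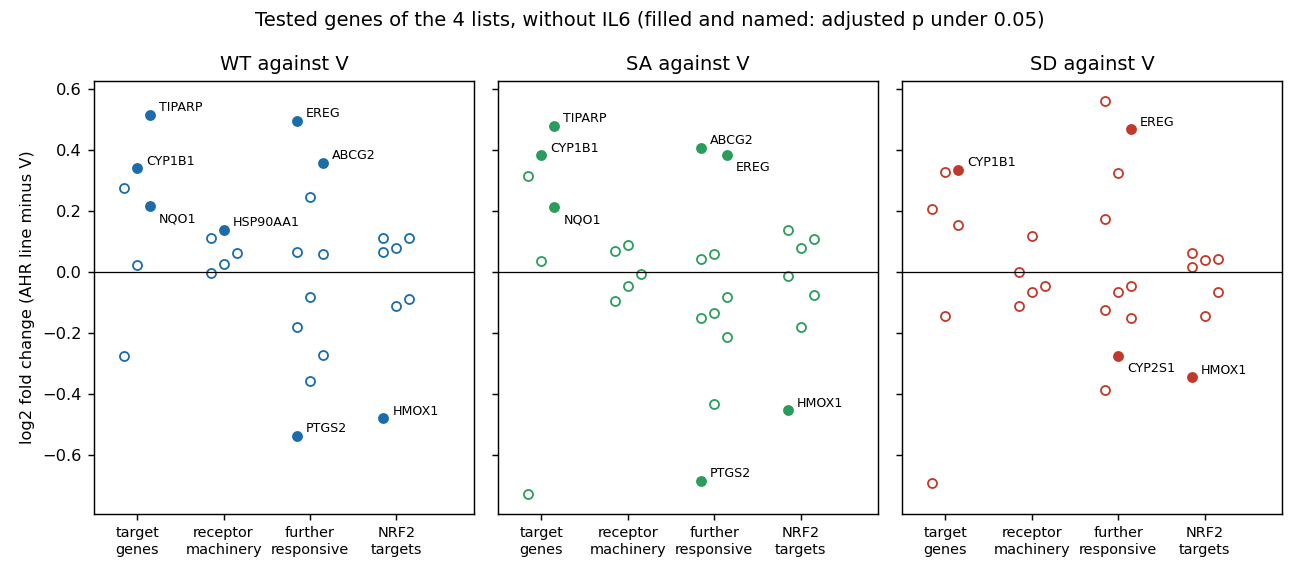
Log2 fold changes against V of every tested entry of the 7 target genes and of the 3 further lists in WT, SA and SD, 1 point per entry, filled and named where the adjusted p was under 0.05. IL6 is left out because its V level was under that of 3 counts. CYP1B1 and EREG are filled above 0 and HMOX1 below 0 in each panel, and most points of the receptor machinery and of the NRF2 targets lie within 0.2 of 0.

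The genes whose log2(CPM + 1) followed each member most closely over the 12 libraries were sought among 11326 genes, as a description over libraries that come in 4 lines. For CYP1B1 they were SERPINE2, MSN and SFRP1 (Pearson r = 0.953, 0.951 and 0.946). For NQO1 they were LDHA, GAPDH and CDC25B (0.965, 0.958 and 0.957), and for TIPARP MPRIP, C2orf69 and ASAP2 (0.915, 0.905 and 0.901). The closest to ALDH3A1 were EEF1AKMT4, PSMC3IP and ANKRD40 (0.855, 0.852 and 0.843). For the larger AHRR entry they were DTX3L, EYA4 and PRNP (0.922, 0.911 and 0.863), and for the smaller one BDNF, ADO and THUMPD3 (0.908, 0.880 and 0.838).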

How the data were processed

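The authors trimmed reads of poly A libraries with Trimmomatic 0.39, quantified them on GRCh38 transcripts with RSEM and deposited expected counts per gene and library, without normalization; RSEM divides reads that fit several genes, and 3.24% to 3.61% of values per library were not whole. Whether strand was used is not given in the sources used here. A second deposited table holds the fold changes and p-values of the authors' own edgeR comparisons and was not used.

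For the tests, expected counts were rounded, and edgeR 4.0.16 (R 4.3.3) was run separately for each comparison on the 6 libraries concerned (filterByExpr, minimum count 10 and minimum total 15, TMM factors, two-sided quasi-likelihood test, Benjamini-Hochberg adjustment over all genes tested, threshold 0.05). The median-of-ratios and Wald alternatives used DESeq2 1.42.0. CPM were computed from unrounded counts with TMM factors over all 12 libraries, which lay between 0.993 and 1.00. Exact permutation tests were two-sided. Coordinates are the deposited ones. Of the 60623 genes, 60295 are in GENCODE v44, whose exons gave lengths and overlaps, and 53489 of these 60295 (88.7%) had the same start and end there. No libraries were copies of one another. In data simulated on WT against V with 14719 genes, 149 of 195 changed genes were recovered (63.9% of 1.5-fold and 88.8% of 2-fold changes) with 4 false calls. Changes under 1.5-fold, the size of every member call, were not simulated.

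The 7 genes and the 3 further lists were chosen with earlier results of these data known. Of the lists, 2 genes are not reported here. The genes named are these 7, the genes of the lists with values for those called, and for each member the 3 genes with the highest Pearson correlation among those with a symbol and a mean of at least 5 CPM.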

Additional observations from a re-analysis of the deposited data

Results flagged for a closer look

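PTGS2, a gene of the list of further AHR-responsive genes, differed between AHR lines by a direct edgeR test of the lines, which is the difference of their changes from V. It was higher in SD than in WT by 0.38 on the log2 scale (adjusted p = 0.0103), at 143 ± 14.0 against 109 ± 11.4 CPM (SD, n = 3). It was higher in SD than in SA by 0.53 (adjusted p = 0.00632), where SA had 99.5 ± 14.2 CPM. The first call was lost without WT replicate 1 (0.31, adjusted p = 0.121) or SD replicate 1 (0.30, 0.0537), and the second without SA replicate 2 (0.43, 0.0851). None of the 7 target genes was called between AHR lines by this test, fitted without a replicate block.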

How the results depend on the processing

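The calls of CYP1B1 in all 3 AHR lines and of NQO1 in WT and SA held under every alternative run (other low-count filters, DESeq2's size factors, DESeq2, edgeR's exact test, 1 fit of all 12 libraries, the replicate block and each library left out). The count of members called changed as follows, and the cause was not tested. WT against V kept 3 except for 2 without V replicate 1 or WT replicate 3, and SA against V kept 3 except for 2 without V replicate 1 or SA replicate 3 and 4 without SA replicate 1. SD against V had 3 under DESeq2 instead of 1, and 1 to 2 with a library left out. SD against WT had 1 under DESeq2 instead of 0. The replicate number was also used as a block. Libraries with the same number were not paired by the labels. Their deviations from the line means had correlations of -0.0596 to 0.103 over 18 pairs, with 12 of them the highest for their own number. Between the AHR lines every pair was highest for its own number, with correlations of 0.0266 to 0.103. Against V, only SA replicates 1 and 3 and SD replicate 1 were. With the block, 1 member was called in SD against WT and 1 when SD was set against SA, both ALDH3A1 (adjusted p = 0.0233 and 0.00989), and no other member call changed, while the call of HSP90AA1 in WT against V was lost (0.0614). Over all genes, the count in SD against WT moved from 105 to 245 with the block, 252 without a filter and 222 by the exact test. In SD against SA it moved from 33 to 165, 153 and 98, and in WT against SA from 12 to 25, 103 and 36, with 5 in the fit of all 12. The count in WT against V fell from 774 to 507 with the block, and those with DESeq2 fell from 806 to 499 in SD against V and from 1069 to 711 in SA against V. With 1 library left out, the count was 434 to 720 in WT against V, 628 to 1195 in SA against V, 502 to 860 in SD against V, 45 to 145 in SD against WT, 11 to 56 in SD against SA and 2 to 25 in WT against SA. The shares of all genes given as background move with these counts.

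Only values that were not called changed sign. NQO1 in WT against SA was -0.0031 without a filter (as reported 0.0028), and the larger AHRR entry in WT against SA was 0.0021 with both entries summed, an alternative added after seeing the data. With 1 library left out, the log2 ranges were -0.36 to 0.31 for AHRR ENSG00000063438 in SD against SA, and for ENSG00000286169 -0.043 to 0.072 in SD against SA, -0.058 to 0.16 in SD against WT and -0.15 to 0.067 in WT against SA. They were -0.0016 to 0.074 for ALDH3A1 in SA against V and -0.051 to 0.025 in WT against SA, -0.060 to 0.026 for CYP1B1 in SD against WT and -0.074 to 0.010 in WT against SA, -0.017 to 0.026 for NQO1 in WT against SA, and -0.053 to 0.11 for TIPARP in WT against SA. The larger AHRR entry passed in SA against V without SA replicate 1 (adjusted p = 0.0452). The alternatives for the 3 further lists and for AHR were chosen after seeing the data. With 0 to 11 counts of CYP1A1 per library and none of CYP1A2, depth limits these members.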
